A study of Mus musculus with 6 samples.

Results

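The epidermal growth factor (EGF) and fibroblast growth factor (FGF) genes described here are 10 ligand and receptor genes whose products drive the growth of neural stem cells. They were taken by name from 18614 genes in a table of bulk RNA from the mouse subventricular zone (SVZ), where neural stem cells line the lateral ventricle. The receptors are Egfr, Erbb4, Fgfr1, Fgfr2 and Fgfr3, and the ligands are Tgfa, Hbegf, Egf, Fgf1 and Fgf2. All 10 had a row in the table, and 9 passed the filter on low counts; Fgf2 did not. On mm10, with gene spans from RefSeq on GRCm38.p6, the receptor genes are Egfr at chr11:16752203-16913907, Erbb4 at chr1:68031884-69108576, Fgfr1 at chr8:25518759-25575718, Fgfr2 at chr7:130162451-130266808 and Fgfr3 at chr5:33721724-33737068. Of the ligand genes, Tgfa lies at chr6:86195038-86275744, Egf at chr3:129677574-129755322 and Fgf2 at chr3:37348477-37410106, while Hbegf and Fgf1 are on chromosome 18.

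The samples were 3 libraries titled as Zhx2 knockout (KO), from mice described as Zhx2Δ/Δ, and 3 titled as wild type (WT), from Zhx2+/+ mice. Age, sex, strain and the way the deletion was made are not stated in the labels. The genotype tags of KO 2 and KO 3 name ZHX3 and ZHX4 in place of ZHX2, so that only the tag of KO 1 matches its title. The labels do not tie libraries to separate animals, and p-values therefore cover only the spread between these 6 libraries, part of which may be technical.

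Each library held between 17037152 and 17685906 estimated counts. Zhx2 itself, the gene that the labels give as deleted, was higher in the libraries labelled KO. Its mean was 60.4 ± 5.84 CPM (counts scaled to the effective library size) there and 39.5 ± 1.17 CPM in WT (SD, n = 3 each). The groups did not overlap, as 8% of all tested genes did in that direction. The log2 fold change was 0.61 (SE 0.10, edgeR unadjusted p = 0.000635, adjusted p = 0.163). The RNA thus goes against the labels, and every direction below is that of the libraries labelled KO. Of the neighbouring tissues, the choroid plexus stood apart: its 16 markers summed to between 343 and 568 CPM in KO and between 5452 and 23225 CPM in WT. All 16 choroid plexus markers and all 12 ependymal markers had a negative log2 fold change, and none of the 16 was at 0 over all libraries. The 10 striatal neuron markers summed to between 3793 and 4897 CPM in KO and between 566 and 8420 CPM in WT. Neuroblasts are the young neurons made in the SVZ. The 9 tested genes listed as their markers summed to between 793 and 862 CPM in KO and between 580 and 888 CPM in WT. Most of each sum came from Tubb3 and Stmn2. Tubb3 was at 318 to 360 CPM in KO and 260 to 300 CPM in WT. Stmn2 was at 275 to 298 CPM in KO and 108 to 320 CPM in WT. In bulk RNA, fewer cells of a type and less RNA per cell cannot be told apart.

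EGF family ligands are made as membrane proteins, are shed by metalloproteases and bind ErbB receptor tyrosine kinases. FGF ligands bind FGF receptors together with heparan sulfate or a klotho protein. Both receptor families feed the RAS and ERK cascade, and both growth factors are the standard mitogens of neural stem cell culture. In the SVZ, EGF receptor marks activated stem cells and transit-amplifying progenitors, while FGF receptor 3 is found in astrocytes and quiescent stem cells.

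Levels between genes were compared per length, as deposited FPKM summed over the transcripts of a gene. Fgfr1 had the highest median level over the 6 libraries, 29.7 FPKM, followed by Fgf1 with 29.4 FPKM, Tgfa with 24.4 FPKM, Fgfr3 with 23.7 FPKM and Fgfr2 with 21.2 FPKM. The ranges of neighbours in this order overlapped. Within libraries, however, Fgfr1 and Fgf1 were each above both Fgfr2 and Fgfr3 in every library. Fgfr1 was above Fgf1 except in WT 2, with 21.9 against 22.4 FPKM. Tgfa changed place between libraries, from 12.2 FPKM in WT 1 to 47.0 FPKM in WT 2. Hbegf followed with a median of 9.75 FPKM. Its highest value, 13.3 FPKM, lay below the lowest Fgfr2 value of 14.3 FPKM but above the lowest Tgfa value, 12.2 FPKM in WT 1. The next medians were those of Erbb4, 4.95 FPKM, and Egfr, 2.45 FPKM, and the ranges of Hbegf and Erbb4 overlapped, as did those of Erbb4 and Egfr. Fgf2, with a median of 0.56 FPKM, and Egf, with 0.34 FPKM, lay below all others, with overlapping ranges. Of the ligands in this list, Fgf1 and Tgfa thus had the highest medians, and Egf and Fgf2 the lowest.

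**Figure D1:**
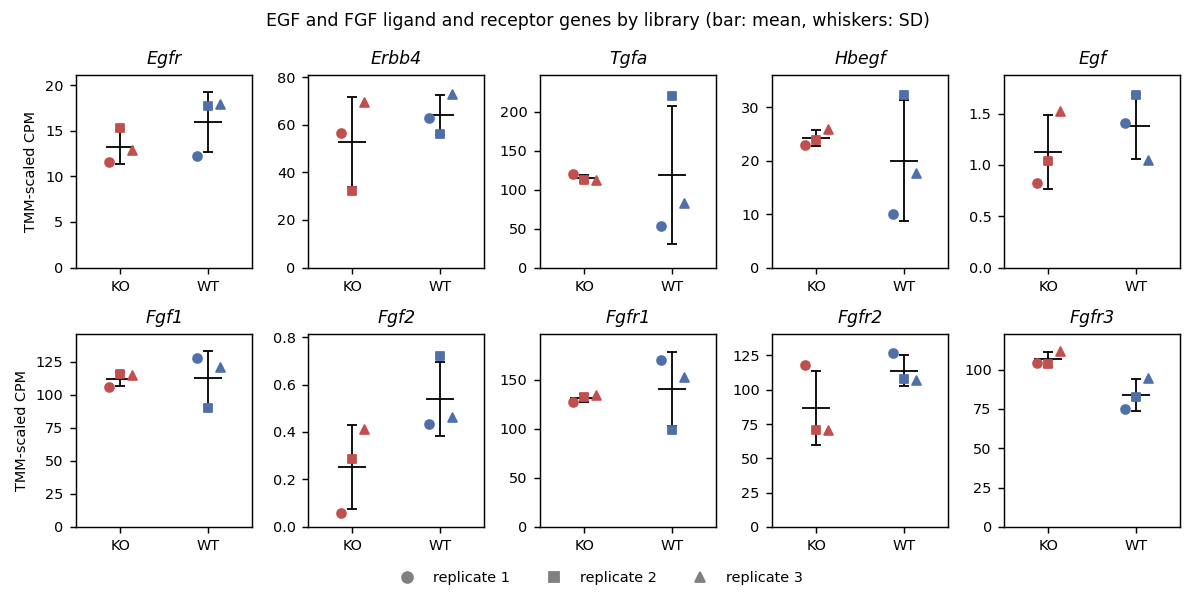
TMM-scaled CPM of the 10 genes (y axis, linear from 0) in the libraries labelled KO and WT (x axis). Symbols give the replicate number, the bar the mean and the whiskers the SD over 3 libraries; Fgfr3 and Fgf2 are the panels in which the groups do not overlap.

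None of the 9 tested genes passed an adjusted p of 0.05 in edgeR's quasi-likelihood test, which called 0 of 15126 genes, or 0%. At an unadjusted p under 0.05, 1 of the 9 was higher in KO, Fgfr3, where 2.68% of all genes were, and 0 were lower, where 6.39% of all genes were; in either direction the share of all genes was 9.07%. DESeq2 called none of the 9, against 2.06% of all genes, and limma-voom called none, against 0% of all genes. At an unadjusted p under 0.05, Fgfr3 was the 1 member that either tool gave. The shares of all genes at that p were 2.33% higher, 6.44% lower and 8.77% in either direction for DESeq2, and 2.72%, 6.35% and 9.06% for limma-voom. Log2 fold changes of the 9 ran from -0.39 for Fgfr2 to 0.34 for Fgfr3, with a median of -0.10 beside 0.02 for all genes. Of the 9, 7 were negative, where 46.6% of all genes were.

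**Figure D2:**
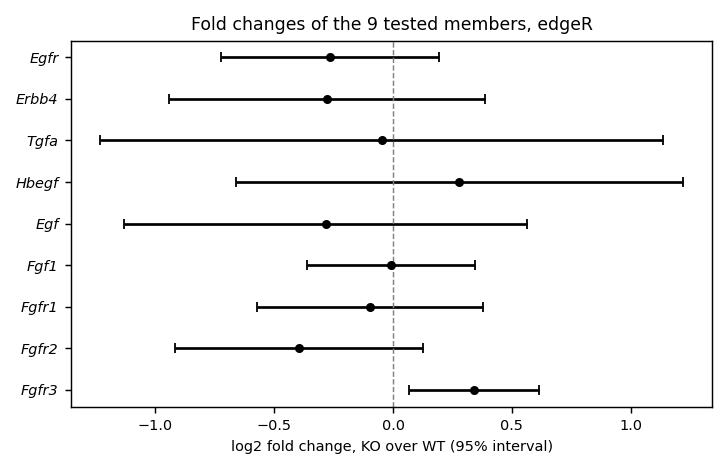
Log2 fold change of KO over WT (x axis) for the 9 tested genes (y axis), with points for the edgeR estimate and whiskers for the 95% interval. The interval of Fgfr3 lies above 0, from 0.07 to 0.61, those of the other 8 hold 0, and that of Tgfa is the widest, from -1.23 to 1.13.

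The EGF receptor genes were expressed at moderate to low levels. Egfr encodes the receptor for TGF-alpha, HB-EGF and EGF. It was at 11.5, 15.3 and 12.9 CPM in KO 1 to 3, against 12.2, 17.71 and 17.93 CPM in WT 1 to 3. The groups overlapped, since WT 1 lay below KO 2 and KO 3. The means were 13.2 ± 1.88 CPM in KO and 15.9 ± 3.26 CPM in WT (SD, n = 3 each), a log2 fold change of -0.27 (SE 0.19, 95% interval -0.72 to 0.19, edgeR adjusted p = 0.723). Egfr marks activated cells, and the 11 other markers of activated stem cells and transit-amplifying progenitors had a median log2 fold change of -0.07, and none had an unadjusted p under 0.05 in edgeR. Nearly all Egfr counts were assigned to the transcript NM_207655.2, which encodes the full receptor of 1210 residues. The shorter NM_007912.4, whose 655 residues end before the kinase, received 1.79, 9.72 and 2.19 estimated counts in KO, against 11.01, 9.19 and 3.89 in WT. These counts are low and overlapped between the groups, and no test was made on the short form.

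Erbb4 encodes a neuregulin receptor that also binds HB-EGF and is found on SVZ neuroblasts and on interneurons. It was at 56.6, 32.2 and 69.7 CPM in KO 1 to 3, against 62.9, 56.3 and 73.1 CPM in WT 1 to 3. KO 2 was the lowest of all 6 libraries, while KO 1 and KO 3 lay within the WT range. The log2 fold change was -0.28 (SE 0.28, 95% interval -0.94 to 0.39, edgeR adjusted p = 0.793). Without KO 2 it was -0.02 and without KO 3 it was -0.53, so its size rests on single KO libraries. In KO 2 the 9 interneuron markers summed to 976 CPM, against 1050 CPM in KO 1 and 1241 CPM in KO 3. Gad2 alone held 507, 597 and 851 CPM of these sums in KO 1 to 3. In WT 1 to 3 the interneuron sums were 1050, 916 and 1181 CPM. The neuroblast markers summed to 833 CPM in KO 2, against 793 CPM in KO 1 and 862 CPM in KO 3, and to 888, 580 and 785 CPM in WT 1 to 3. The part of these cell types in the level of Erbb4 was not tested.

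Tgfa and Hbegf, which encode the ligands TGF-alpha and heparin-binding EGF, varied more among WT libraries than between the groups. Tgfa was at 119.8, 112 and 112 CPM in KO 1 to 3, against 53.4, 219.7 and 82.5 CPM in WT 1 to 3. The KO libraries lay close together, with all 3 above WT 1 and WT 3 and below WT 2. The highest WT library had 4.11 times the level of the lowest, and the highest KO library 1.07 times. The group means, 114.6 ± 4.53 CPM in KO and 118.6 ± 88.8 CPM in WT (SD, n = 3 each), differed by a log2 fold change of -0.05 (SE 0.49, edgeR adjusted p = 0.986).

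Hbegf was at 23.0, 23.8 and 25.8 CPM in KO 1 to 3, against 9.96, 32.2 and 17.8 CPM in WT 1 to 3. WT 1 was again the lowest library and WT 2 the highest, and the KO libraries again lay between WT 3 and WT 2. The log2 fold change was 0.28 (SE 0.39, 95% interval -0.66 to 1.22, edgeR adjusted p = 0.856). The direction of both ligands rested on single WT libraries. Without WT 2 the log2 fold change of Tgfa was 0.75 (edgeR adjusted p = 0.301; DESeq2 adjusted p = 0.0214) and that of Hbegf 0.80 (edgeR adjusted p = 0.354; DESeq2 adjusted p = 0.109). Without WT 1 they were -0.40 and -0.04 in edgeR.

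Markers of striatal projection neurons, the neurons beneath the SVZ, varied across the libraries in the same order as Hbegf. The 10 markers summed to 3793, 4856 and 4897 CPM in KO 1 to 3, against 566, 8420 and 2421 CPM in WT 1 to 3. WT 1, WT 3, KO 1, KO 2, KO 3 and WT 2 is the rising order of these sums and also that of Hbegf. For Tgfa the order of the WT libraries was the same, with the KO libraries between WT 3 and WT 2. Among the KO libraries the order was the opposite. Tgfa was at 119.8, 112.3 and 111.7 CPM in KO 1 to 3, falling as the sums rose. The log2 fold changes of all 10 markers were positive (median 0.27), and none had an unadjusted p under 0.05 in edgeR. Their part in the levels of Tgfa and Hbegf was not tested.

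**Figure D3:**
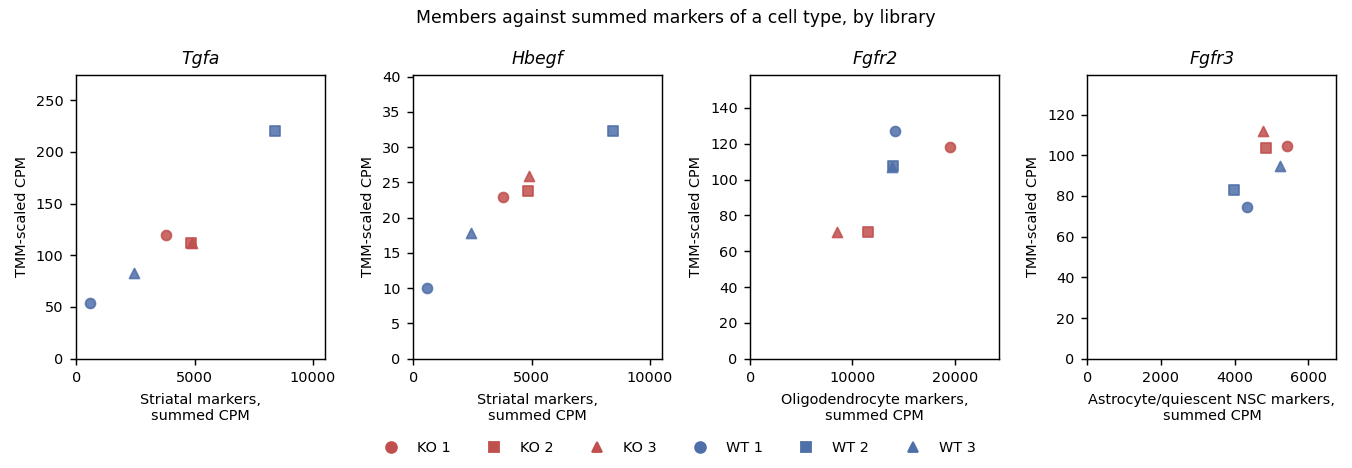
TMM-scaled CPM of Tgfa, Hbegf, Fgfr2 and Fgfr3 (y axes, from 0) against the summed CPM of markers of a cell type (x axes, from 0). Each symbol is a library. Tgfa and Hbegf are lowest in WT 1 and highest in WT 2, where striatal markers sum to 566 and 8420 CPM, and KO 1 is highest in oligodendrocyte markers and highest of the KO libraries in Fgfr2.

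Egf, the gene of the founding ligand of the family, had 14, 18 and 26 counts in KO 1 to 3, against 26, 28 and 18 in WT 1 to 3. These are levels of 0.82 to 1.53 CPM in KO and 1.04 to 1.68 CPM in WT, where 3 counts, the limit that a count of 0 allows, come to between 0.17 and 0.176 CPM. The groups overlapped, and the log2 fold change was -0.28 (SE 0.36, 95% interval -1.13 to 0.56, edgeR adjusted p = 0.839). That interval holds changes in both directions, and at counts this low counting error adds to the spread between libraries.

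Among the FGF ligands, Fgf1, which encodes acidic FGF, was at 105.9, 116 and 115 CPM in KO 1 to 3, against 128, 89.9 and 121 CPM in WT 1 to 3. The KO libraries lay inside the WT range. The means of 112 ± 5.47 CPM in KO and 113 ± 20.3 CPM in WT (SD, n = 3 each) gave a log2 fold change of -0.01 (SE 0.15, 95% interval -0.36 to 0.34, edgeR adjusted p = 0.988). Fgf1 lies within the span of Arhgap26 on chromosome 18, a gene with between 1474 and 1779 counts in KO and between 1194 and 1561 in WT. Whether the counting used strand is not stated, so reads of the pair may not be fully separated.

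Fgf2, which encodes basic FGF, the mitogen of stem cell culture, was barely detected. It had 1, 5 and 7 counts in KO 1 to 3, against 8, 12 and 8 in WT 1 to 3, and did not pass the filter. In counts and CPM all KO values lay below all WT values, but only just, with 7 counts in KO 3 and 8 in WT 1 and WT 3. In FPKM the groups overlapped, with 0.61 in KO 3 and 0.51 in WT 1. Among all tested genes, which leave out Fgf2, 8.74% were lower in KO without overlap in CPM. The exact permutation p of the difference in mean CPM was 0.1 (two-sided), the smallest that 3 libraries against 3 allow. In the RefSeq gene table Fgf2 overlaps Nudt6 by 5125 bases. Nudt6 had 71, 64 and 57 counts in KO, against 77, 71 and 58 in WT, several times as many as Fgf2, so the few Fgf2 counts are uncertain.

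The FGF receptor genes had higher FPKM levels than both EGF receptor genes in every library, and their fold changes had both signs. Fgfr3 encodes a receptor of astrocytes and quiescent stem cells, and it was the 1 tested member whose groups did not overlap. It was at 104.4, 103 and 112 CPM in KO 1 to 3, against 74.6, 82.8 and 94.8 CPM in WT 1 to 3. Every KO library was above the highest WT library, WT 3. Among all tested genes, 8% were likewise higher in KO with no overlap, and 8.74% lower, 16.7% in all. The means were 106.5 ± 4.56 CPM in KO and 84.1 ± 10.1 CPM in WT (SD, n = 3 each), a ratio of 1.27 and a log2 fold change of 0.34 (SE 0.12, 95% interval 0.07 to 0.61). The unadjusted p was 0.0218 and the adjusted p 0.458 in edgeR, while the exact two-sided permutation test of mean CPM gave its lowest possible p, 0.1. With single libraries left out the log2 fold change stayed between 0.26 and 0.44 in edgeR, and no adjusted p passed.

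Astrocyte and quiescent stem cell markers give the context of Fgfr3. The 13 markers summed to 5414, 4847 and 4776 CPM in KO 1 to 3, against 4338, 3972 and 5223 CPM in WT 1 to 3. Of these, 9 had a positive log2 fold change and 4 a negative one, with a median of 0.18. Aldh1l1, a folate enzyme gene of astrocytes, was among those at an unadjusted p under 0.05 in edgeR, with a log2 fold change of 0.46, and so was Sox9, a glial transcription factor gene, with -0.46. Both are named because no other marker of the 13 reached that p; they were chosen after their values were seen. The 10 microglia markers summed to between 528 and 636 CPM in KO and between 421 and 524 CPM in WT. Their log2 fold changes were all above 0 (median 0.29), as were those of the 5 blood markers (median 0.40). Of the 10 microglia markers, 4 genes, C1qa, C1qb, C1qc and Trem2, had an unadjusted p under 0.05 in edgeR and no overlap between groups. These 4 are named with their values known. Of all tested genes, 2.68% were higher in KO at that p, and 8% were higher without overlap. The part of astrocyte or microglia content in the level of Fgfr3 was not tested.

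Fgfr2 had the largest negative fold change of the 9 tested members, and 1 library decided its size. It encodes the receptor that serves astrocytes and oligodendrocytes, where it is involved in myelin growth. It was at 118, 70.9 and 71.0 CPM in KO 1 to 3, against 126.9, 107.6 and 107.2 CPM in WT 1 to 3. KO 2 and KO 3 lay below every WT library, while KO 1 lay within the WT range. The means were 86.7 ± 27.2 CPM in KO and 113.9 ± 11.3 CPM in WT (SD, n = 3 each), a log2 fold change of -0.39 (SE 0.22, 95% interval -0.92 to 0.13, edgeR adjusted p = 0.647).

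Without KO 1 the log2 fold change of Fgfr2 was -0.68, with an unadjusted p of 0.00204 and an adjusted p of 0.449 in edgeR. DESeq2 called it on those 5 libraries, with a log2 fold change of -0.70 and an adjusted p of 0.00208. KO 1 alone against WT gave 0.05. KO 1 is the library whose genotype tag names ZHX2, while the tags of KO 2 and KO 3 name other genes. Zhx2 itself was at 67.1, 57.8 and 56.3 CPM in KO 1 to 3, so it was not lowest in KO 1. Whether the tags bear on the level of Fgfr2 was not tested.

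Oligodendrocyte markers, which include the myelin genes, were also higher in KO 1 than in KO 2 and KO 3, but there KO 1 lay above every WT library. The 10 markers summed to 19502 CPM in KO 1, against 11542 CPM in KO 2 and 8440 CPM in KO 3, and to between 13824 and 14119 CPM in WT. Their median log2 fold change was -0.08, with 9 of 10 negative, beside -0.39 for Fgfr2. Of the 12297 other genes with a mean of at least 5 CPM, those whose centred log2 level lay closest to that of Fgfr2 over the 6 libraries were Pls1, Sypl and Car2. Their root mean square differences from Fgfr2 were 0.064, 0.08 and 0.09 on the log2 scale. Car2, the carbonic anhydrase 2 gene, was at 381, 223 and 190 CPM in KO 1 to 3, against 365, 308 and 315 CPM in WT 1 to 3. Pls1, the plastin 1 gene, was at 36.3, 19.7 and 19.9 CPM in KO, against 35.1, 32.7 and 32.1 CPM in WT. Pls1, Sypl and Car2 were picked for their closeness to Fgfr2 over the same 6 libraries. Their low values in KO 2 and KO 3 therefore follow from that choice. The part of oligodendrocyte content in the level of Fgfr2 was not tested.

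The sequences at the gene starts of Fgfr3 and Fgfr2, which have the smallest p of the 9 in edgeR, differed in base composition. They are shown 5′ to 3′ on the strand of the gene, from RefSeq on GRCm38.p6, with 250 bases before the start and 50 from it on, and capitals mark a GC box (GGGCGG or CCGCCC), the site that SP family factors bind. The Fgfr3 window lies at chr5:33721474-33721773 on the plus strand and the Fgfr2 window at chr7:130266759-130267058 on the minus strand.
Fgfr3: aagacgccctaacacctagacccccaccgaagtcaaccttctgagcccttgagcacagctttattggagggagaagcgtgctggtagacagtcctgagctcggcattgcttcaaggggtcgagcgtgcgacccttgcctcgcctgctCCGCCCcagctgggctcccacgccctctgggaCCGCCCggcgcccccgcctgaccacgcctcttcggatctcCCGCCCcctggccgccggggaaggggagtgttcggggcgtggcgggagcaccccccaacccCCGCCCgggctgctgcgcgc
Fgfr2: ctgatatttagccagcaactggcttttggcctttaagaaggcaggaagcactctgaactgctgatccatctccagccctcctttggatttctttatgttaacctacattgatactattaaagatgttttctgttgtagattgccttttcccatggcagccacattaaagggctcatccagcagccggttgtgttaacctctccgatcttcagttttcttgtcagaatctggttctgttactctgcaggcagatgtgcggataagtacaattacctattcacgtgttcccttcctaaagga
The Fgfr3 window holds 4 GC boxes and 26 CpG dinucleotides, and the Fgfr2 window holds 0 GC boxes and 4 CpG. A GC box occurs in 35.7% of the 32851 windows of this length in the table, where the median number of CpG is 7. Neither window holds a TATA box (TATAAA or TTTATA), which 13.6% of windows do. These are descriptions of the windows, and a further listed start of Fgfr3 is not shown. Which start is used in these libraries was not determined, and all Fgfr2 transcripts with counts are predicted models. A link between the windows and the fold changes was not tested.

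Fgfr1, the FGF receptor gene with the broadest expression in the brain, had group means closer together than the WT libraries were to each other. It was at 127, 133 and 134 CPM in KO 1 to 3, against 170.3, 98.4 and 153 CPM in WT 1 to 3. The KO libraries lay inside the WT range. The means were 131 ± 3.699 CPM in KO and 141 ± 37.5 CPM in WT (SD, n = 3 each), a log2 fold change of -0.10 (SE 0.20, 95% interval -0.57 to 0.38, edgeR adjusted p = 0.909). Without WT 2, the lowest WT library, it was -0.31 (edgeR adjusted p = 0.418), and without WT 1 it was 0.06.

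The counts of Fgfr1 were divided by the authors' estimation over 10 listed transcripts, and this split is given as a description. NM_010206.3 and NM_001079908.2, which encode receptors of 822 and 820 residues, were listed at 0 in each KO library. In WT 1 to 3 NM_010206.3 had 160.6, 7.32 and 56.7 estimated counts, and NM_001079908.2 had 342, 19.1 and 62.0. NM_001079909.2, which encodes a receptor of 733 residues, had 542, 829 and 623 estimated counts in KO, against 203, 353 and 402 in WT. The groups overlapped for none of these 3 transcripts. Over the table, 5.34% of transcripts with a mean of at least 10 counts were higher in KO without overlap, and 7.56% were lower. Among the 43 transcripts of the 10 genes with such a mean, 2 were higher and 4 were lower, of which 1 and 3 belong to Fgfr1. These tallies lie near the shares over the table, and nothing particular to these genes is read from them.

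The coding difference between NM_010206.3 and NM_001079909.2 is 1 exon of 267 bases at chr8:25555508-25555774 on the plus strand of mm10, per GENCODE M21 on GRCm38. It encodes most of the first immunoglobulin-like domain of the receptor, which the beta form of FGFR1 lacks. It is shown as read from the annotated transcript, with the exon in capitals and 15 bases of the neighbouring exons in lower case, beside the junction of the shorter transcript.
NM_010206.3: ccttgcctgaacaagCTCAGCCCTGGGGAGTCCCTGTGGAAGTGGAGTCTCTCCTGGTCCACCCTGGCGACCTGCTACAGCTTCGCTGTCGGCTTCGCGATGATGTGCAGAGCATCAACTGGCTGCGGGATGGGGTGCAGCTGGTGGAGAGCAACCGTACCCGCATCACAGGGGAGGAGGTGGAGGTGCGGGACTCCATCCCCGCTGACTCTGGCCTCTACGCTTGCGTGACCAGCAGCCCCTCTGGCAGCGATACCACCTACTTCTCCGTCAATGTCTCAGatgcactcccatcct
NM_001079909.2: ccttgcctgaacaagatgcactcccatcct
NM_001079909.2 held 25.1%, 36.0% and 27.2% of Fgfr1 counts in KO 1 to 3, against 6.46%, 21.5% and 15.2% in WT 1 to 3. The pair of longer transcripts held 0% in KO, against 15.98%, 1.61% and 4.50% in WT. The other 7 transcripts are predicted models, which held between 64.0% and 74.9% of the counts in KO and between 76.8% and 80.3% in WT. Which of the 7 hold the exon was not determined here, so the total with and without it is not known. These counts are estimates that divide reads between overlapping transcripts, an estimate of 0 can be a failed one, and no test was made on them.

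**Figure D4:**
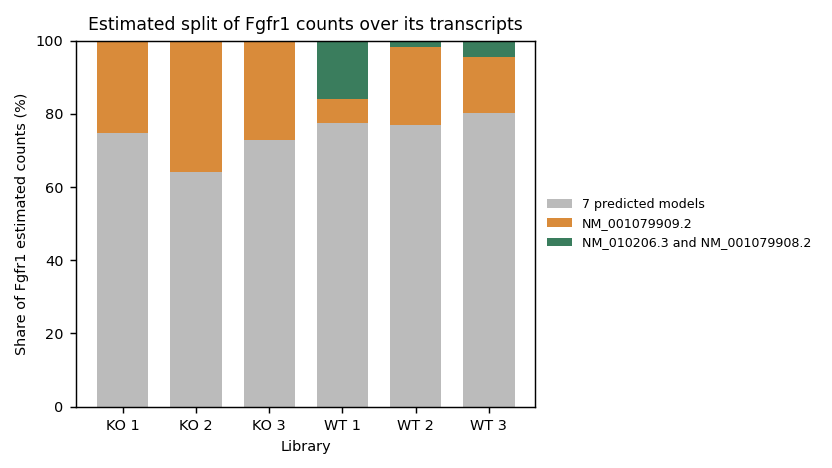
Share of the estimated Fgfr1 counts (y axis, percent) given to NM_010206.3 with NM_001079908.2, to NM_001079909.2 and to 7 predicted models, in each library (x axis). The pair of longer transcripts is absent from the KO bars and takes 1.61% to 15.98% in WT.

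The SD of log2 CPM was larger among WT than among KO libraries in 6 of the 9 tested members, a share near that of all tested genes, 54.4%. It was 0.06 in KO and 1.04 in WT for Tgfa, 0.09 and 0.84 for Hbegf, 0.04 and 0.42 for Fgfr1, 0.07 and 0.27 for Fgf1, 0.20 and 0.31 for Egfr and 0.06 and 0.17 for Fgfr3. The median over all genes was 0.18 in KO and 0.19 in WT. In the other 3 it was larger among KO libraries, with 0.58 in KO and 0.19 in WT for Erbb4, 0.42 and 0.14 for Fgfr2 and 0.41 and 0.32 for Egf.

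The rest of the pathway was read from 8 lists with 136 genes, of which 124 were tested. None passed in edgeR over all genes. At an unadjusted p under 0.05, 0 of the 124 were higher in KO and 7 were lower, where 2.68% and 6.39% of all genes were. Without overlap between groups, 5 of the 124 were higher in KO and 9 were lower, where 8% and 8.74% of all genes were. DESeq2 called 1, Kl, and limma-voom, which called no gene at all, called none. The median log2 fold change of the 124 was -0.03, beside 0.02 for all genes.

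Co-receptors and matrix partners held 3 of the 7 lower genes. Kl encodes klotho, the FGF23 co-receptor, which is abundant in the choroid plexus and is 1 of its 16 markers. It was at 4.42, 9.45 and 6.22 CPM in KO 1 to 3, against 465.8, 465.0 and 123 CPM in WT 1 to 3, with no overlap. Its log2 fold change was -5.71 (SE 0.64), with an adjusted p of 0.144 in edgeR and of 1.32e-29 in DESeq2. The other 15 choroid plexus markers were lower in the same libraries, and WT 3 was the lowest WT library for Kl as for their sum. Flrt2, whose membrane protein interacts with FGF receptors, had a log2 fold change of -0.42 (SE 0.13, edgeR adjusted p = 0.415). The third, the syndecan gene Sdc2, had -0.30 (edgeR adjusted p = 0.537) and is named outside the naming rule, with its values known.

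Other ligands and ErbB receptors showed small differences. Fgf18 was at 1.65, 2.42 and 2.29 CPM in KO, against 3.25, 3.001 and 3.36 CPM in WT, without overlap. Its log2 fold change was -0.59 (SE 0.24, edgeR adjusted p = 0.536). Fgf13, an intracellular FGF homologue that acts on sodium channels, had 0.33 (SE 0.38), and Nrg4, a neuregulin gene, 0.38 (SE 0.27). Erbb3, the neuregulin receptor gene of oligodendrocyte lineage cells, was at 14.96, 10.2 and 9.81 CPM in KO 1 to 3, against 14.3, 17.5 and 15.3 CPM in WT 1 to 3. As in Fgfr2, KO 2 and KO 3 lay below every WT library and KO 1 did not. The log2 fold change of Erbb3 was -0.43 (SE 0.19, edgeR adjusted p = 0.579).

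Feedback inhibitors of the receptors and of ERK had a median log2 fold change of -0.09 over 20 tested genes, of which 13 were negative. Spry1, a Sprouty gene that ERK signalling induces, was at 12.3, 10.9 and 13.3 CPM in KO, against 18.2, 14.2 and 14.4 CPM in WT. All KO libraries were below all WT libraries, with a log2 fold change of -0.36 (SE 0.15, edgeR adjusted p = 0.55). Lrig3, of a family of receptor regulators, had -0.57 (SE 0.22, edgeR adjusted p = 0.519) and likewise no overlap. No gene of this list was called by DESeq2.

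Ligand shedding genes had a median of -0.21 over 10 genes. Rhbdf2, which encodes an inactive rhomboid that carries the sheddase ADAM17 to the surface, was at 2.42, 2.88 and 1.88 CPM in KO, against 5.95, 4.62 and 2.78 CPM in WT. Its log2 fold change was -0.90 (SE 0.34, edgeR adjusted p = 0.505), and KO 2 lay above WT 3, so the groups overlapped. Rhbdl1, a rhomboid protease gene, had 0.25 (SE 0.11).

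The intracellular genes differed little. Over 25 adaptor and ERK cascade genes the median log2 fold change was -0.07, with values between -0.39 and 0.36. Sos1, a RAS exchange factor gene, had -0.32 (SE 0.14), and Mapk3, which encodes ERK1, had 0.28 (SE 0.13), both without overlap between groups. In this list of 25, 2 genes were higher and 2 lower without overlap, where 8% and 8.74% of all genes were. The PI3K, phospholipase C and STAT genes had a median of -0.03 over 18 genes, with Akt1 at 0.23 (SE 0.10) and Pik3r2 at 0.17 (SE 0.12). The 15 tested transcription factors and targets downstream of ERK had a median of 0.06, with Ier3, an immediate early gene, at 0.44 (SE 0.22) and Elk3, an ETS factor gene, at -0.18 (SE 0.13). In these 3 lists no gene had an unadjusted p under 0.05 in edgeR, and DESeq2 called none.

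**Figure D5:**
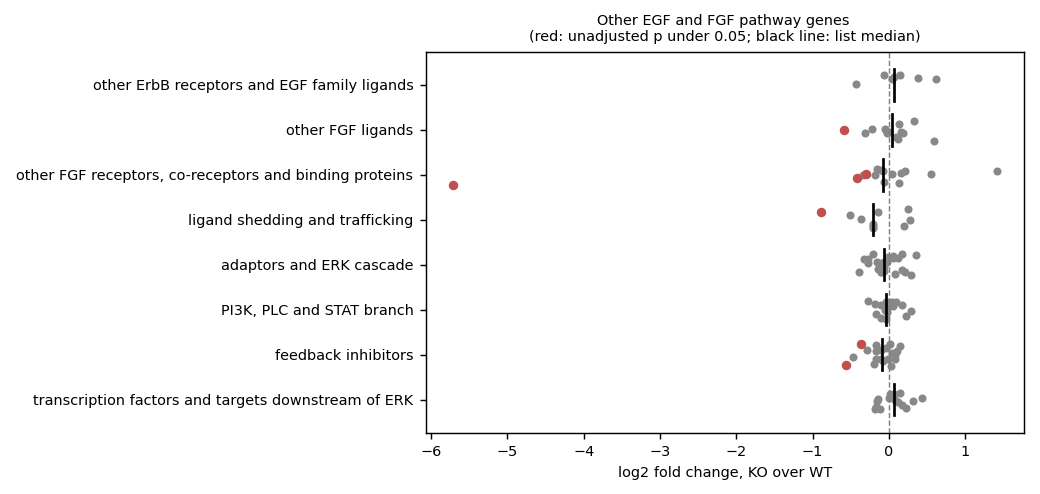
Log2 fold change of KO over WT (x axis) of 124 tested pathway genes in 8 lists (y axis). Red points have an unadjusted p under 0.05 in edgeR, all 7 of them negative, black lines are list medians, and the point at -5.71 is Kl.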

How the data were processed

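RNA from the SVZ was sequenced in 3 libraries titled KO and 3 titled WT, with groups and numbers as the titles give them. The deposited table gives estimated counts per RefSeq transcript, per the file headers. Its FPKM columns were also made by the authors, and their values follow transcript length and the total of each library. Per the submitters' processing notes, mm10 was used and limma 3.40.6 appears as a tool; aligner, counting tool and strand setting were not given in the sources used here.

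Counts were summed per NCBI gene number and rounded. Symbols came from the RefSeq table of GRCm38.p6, which named 18489 of 18614 genes; unnamed genes held at most 0.14% of a library's counts. The main test was edgeR 4.0.16 under R 4.3.3 (TMM, filterByExpr with a minimum count of 10, robust quasi-likelihood F test, two-sided, group as the only term). P-values were Benjamini-Hochberg adjusted over 15126 genes, with a threshold of 0.05. Standard errors came from the F statistic. DESeq2 1.42.0 and limma-voom (limma 3.58.1) were run beside it, and the procedure was tested on simulated data. Levels are TMM-scaled CPM. Limits from 3 counts cover counting error only. Replicates within a group differed by more than sampling noise (chi-square per degree of freedom of at least 21.7).

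Members and lists were chosen with earlier results of these data known. All members are named, with the 2 genes of smallest p per pathway list (mean of at least 1 CPM), and the 3 genes nearest in pattern to the member with the largest fold change. GENCODE M21 gave coding lengths, by accession, for 17 of the 62 transcripts. Promoter windows were listed for 7 of the 10 members. The other settings tried are in the closing section.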

Additional observations from a re-analysis of the deposited data

How the results depend on the processing

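Of 197 values of member log2 fold changes over 22 alternatives, 178 kept their direction and their side of the threshold. Tgfa reversed to 0.21 with limma-voom, 0.22 with the replicate block and 0.017 with KO 1 alone against WT. Without WT 2 Tgfa reversed to 0.75 in both edgeR and DESeq2, and DESeq2 called it. With single libraries left out in edgeR its range was -0.40 to 0.75. Hbegf reversed without WT 1, to -0.045 in edgeR and -0.046 in DESeq2, and its edgeR range was -0.045 to 0.80. Fgf1 reversed to 0.0062 with limma-voom and 0.0048 with the replicate block. Without KO 1 it was 0.030 in edgeR and 0.013 in DESeq2, without WT 1 it was 0.089 and 0.091, and without WT 3 it was 0.042 and 0.028. Fgfr1 reversed without WT 1, to 0.064 in edgeR and 0.067 in DESeq2, and its edgeR range was -0.31 to 0.064. Fgfr2 reversed to 0.054 with KO 1 alone and passed in DESeq2 without KO 1 (-0.70). The causes were not tested.

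The 0 members called became 1 in DESeq2 without KO 1 (Fgfr2) and 1 without WT 2 (Tgfa), settings added after the data were seen. With single libraries left out in edgeR it was 0 throughout. The 0 genes called overall became 311 with DESeq2. In edgeR with single libraries left out it was 0 to 137, the 137 without WT 3. In DESeq2 it was 275 without KO 1, 257 without KO 2, 317 without KO 3, 139 without WT 1, 348 without WT 2 and 451 without WT 3. The replicate block called 0 genes and 0 members. Deviations from the group mean had correlations of -0.16, -0.067 and -0.037 between same-numbered libraries. Deviations within groups of 3 constrain one another, so these values cannot show whether same-numbered libraries were handled together. No scaling moved the median of all genes by over 0.1. By CPM per length of the longest transcript Fgf1 (29.2 CPM per kilobase) came before Fgfr1 (26.3). Depth limits Egf and Fgf2.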
